A study of Arabidopsis thaliana with 12 samples.

Results

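The 9 genes described here encode proteins of the cytosolic heat shock response of Arabidopsis thaliana and were chosen as listed loci: HSP90.1 (AT5G52640), HSP70 (AT3G12580), HSP101 (AT1G74310), HSP17.4 (AT3G46230), HSP17.6A (AT5G12030), HSP17.6II (AT5G12020), HSP18.2 (AT5G59720) and the heat shock factor genes HSFA2 (AT2G26150) and HSFB1 (AT4G36990). They are 9 of 27313 loci in the deposited tables, and all 9 were among the 18149 loci with enough reads to be tested. The study infiltrated mature rosette leaves with latrunculin B (latB), a drug that binds actin monomers and depolymerizes actin filaments, or with the solvent DMSO, and sequenced RNA from the leaves. The 4 groups, with 3 libraries each, were sid2 plants given 1 µM latB, sid2 plants given 0.01% DMSO, WT (Col-0) plants given 1 µM latB and WT plants given 0.01% DMSO. sid2 plants carry a mutation in the salicylic acid synthesis gene ICS1. Leaves of all groups came from 4-week-old plants kept at 22 °C (10 h days and 14 h nights), with 3 leaves treated per plant, and were frozen 24 h after infiltration. The labels name no heat treatment. No label ties a library to its own plant, so the p-values cover only the spread among these samples, which may be technical.

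In the heat shock response, class A1 heat shock factors are held inactive by HSP70 and HSP90 and are freed when unfolded proteins occupy these chaperones. They then bind heat shock elements, inverted repeats of nGAAn units, in front of chaperone genes and of HSFA2, a further activator that prolongs the response. HSFB1 belongs to class B, which lacks the activation domain of class A, and is also known as TBF1 for a part in the change from growth to salicylic acid-dependent defence. HSP90 folds signalling proteins and immune receptors, HSP101 pulls aggregates apart together with HSP70, and the small heat shock proteins hold unfolding proteins in a soluble state.

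The sequences shown first are the matches to the heat shock element in front of the 9 coding sequences, since these elements define the response that the 9 genes are known for. In the 500 bases before the first coding base, all 9 genes had at least 1 match to the 2-unit core GAANNTTC or TTCNNGAA, searched on both strands (each core is its own reverse complement). Of 18000 such windows of tested genes 35.4% held one. A run of 3 units (GAANNTTCNNGAA or TTCNNGAANNTTC, each containing 2 overlapping 2-unit matches) stood before 5 of the 9 genes, HSP90.1, HSP70, HSP17.4, HSP18.2 and HSFA2, and before 1.42% of the windows. In the 250 bases before the annotated gene start, 3 of the 9 genes held a 2-unit match (HSP17.4, HSP17.6A and HSFA2) and 2 held a 3-unit match (HSP17.4 and HSFA2), beside 16.0% and 0.417% of 18001 windows of tested genes. The 3-unit match in the 500 bases, or the 2-unit match where there was none, is printed for each gene on the gene's strand, with 6 flanking bases in lower case and the matching run in capitals; HSP17.4 has 2 such runs. Sequences and coordinates are from RefSeq, build TAIR10.1.
HSFB1 (chr4:17440170-17440189, plus strand): gagaatTTCTAGAAacagca
HSFA2 (chr2:11135530-11135554, plus strand): agtaacGAAGTTTCTGGAAcattgt
HSP90.1 (chr5:21352256-21352280, plus strand): cgaaaaGAACTTTCTGGAAttcgtt
HSP70 (chr3:3993848-3993872, minus strand): actcgtGAACGTTCTCGAAagctct
HSP101 (chr1:27940327-27940346, minus strand): ataagcGAAAATTCcacgtg
HSP17.4 first (chr3:16984948-16984972, minus strand): aacataGAAGCTTCTTGAAgccacc
HSP17.4 second (chr3:16984867-16984891, minus strand): aaacctGAAATTTCAAGAAacttgc
HSP17.6A (chr5:3884847-3884866, minus strand): agacgtTTCTCGAAcgttag
HSP17.6II (chr5:3883040-3883059, minus strand): agacgtTTCTCGAAcaatac
HSP18.2 (chr5:24062390-24062414, plus strand): acaaacGAAACTTCCTGAAatgcca

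The sites of HSFA2, HSP90.1 and HSP17.6A and the first of HSP17.4 lie upstream of the annotated gene. The second of HSP17.4 lies against its start, and that of HSFB1 spans it. The sites of HSP70, HSP101, HSP17.6II and HSP18.2 lie between the annotated gene start and the first coding base. For HSP90.1 RefSeq gives 0 bases between these points and a coding sequence shorter than the deposited one (2103 against 2118 bases). Both of its windows end in a stretch that opens with ATG and is as long as this difference. They may therefore hold transcribed and coding bases, and positions for HSP90.1 count from the RefSeq coding start. HSP17.6II and HSP17.6A are neighbours on the same strand with 845 bases between them, and their printed sites share the bases agacgtTTCTCGAAc. The coding sequences of this pair are 86.1% identical, those of the class I genes HSP17.4 and HSP18.2 are 77.0% identical, and pairs across the classes are 51.1% to 54.1% identical. A match is a description of the letters, not a measured binding site.

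**Figure D1:**
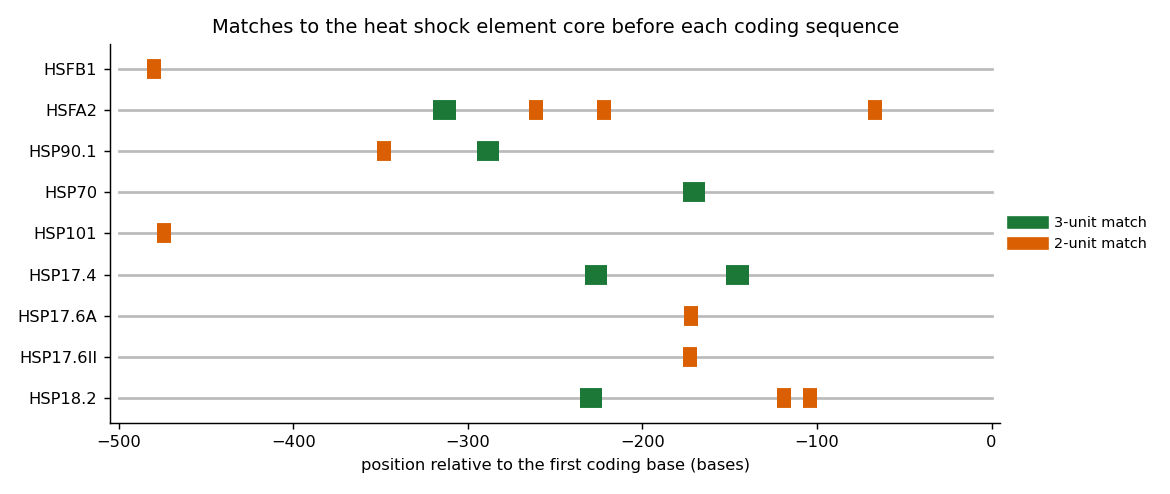
Positions of the matches in the 500 bases before the first coding base of each gene, with position in bases on the x axis and a row for each gene. Green bars are 3-unit matches and orange bars are 2-unit matches outside them; 5 of the 9 genes have a green bar.

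Library totals ran from 14506962 to 22449387 estimated reads, of which the 9 genes took 528 to 7120. On the first principal component of log2 CPM (51.7% of the variance) the WT latB libraries lay at 96.3 to 121.3 and all others at -11.3 or lower, and on the third component (9.58%) replicate 3 of sid2 DMSO lay at 11.4 against -43.0 and -54.7 for its group. ICS1 transcripts were counted at 299 to 385 CPM in sid2 and 21.6 to 161 CPM in WT, so their level does not test the mutation. The salicylic acid marker PR1 lay at 0 to 7.58 CPM in sid2 and 79.4 to 5267 CPM in WT. Of the marker lists, 3 of 3 mesophyll and 3 of 3 epidermis genes fell in WT latB, and summed mesophyll TPM there was 30710 to 39200, against 66010 to 74350 in WT DMSO (59930 to 65150 in sid2 latB and 63310 to 66620 in sid2 DMSO). Of 3 guard cell genes 1 rose and 2 fell in WT (sum 37.3 to 52.8 TPM in latB, 10.3 to 14.8 TPM in DMSO), and 2 of 3 phloem genes fell in sid2 (sum 73.6 to 82.7 TPM in latB, 135 to 141 TPM in DMSO). The seed and flower markers summed to at most 2.26 TPM in every library. Of 5 tested clock genes 3 rose in WT. The part of these shifts in the values of the 9 genes was not tested, and in whole leaves fewer cells of a type and less RNA per cell cannot be told apart.

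Latrunculin B moved the 9 genes unequally. In sid2, 2 of 9 rose (HSP90.1 and HSP70) and none fell, beside 3.53% of all tested genes that rose and 1.21% that fell by edgeR's quasi-likelihood test (p-values adjusted after Benjamini and Hochberg). In WT, 3 of 9 rose (HSFB1, HSP90.1 and HSP17.4) and none fell, beside 22.1% of all tested genes that rose and 22.7% that fell. These shares move with the processing. In sid2, 640 genes rose and 219 fell, against 1346 and 127 with scaling by library size alone, 975 and 107 with limma on TPM and 1082 and 525 with DESeq2. Leaving out any 1 of the sid2 libraries moved both counts by over 1.5 times, down to 308 and 56 at the lowest, and up to 1009 and 463 without sid2 DMSO replicate 3. In WT, 4012 rose and 4115 fell, against 6818 and 2521 with scaling by library size alone and 6942 and 2395 with limma on TPM. In sid2 the 3 latB libraries lay above all 3 DMSO libraries for 5 genes (HSFB1, HSP90.1, HSP70, HSP17.6A and HSP17.6II), as they did for 14.0% of all genes. In WT they did so for 3 genes, the 3 that rose, and for 28.6% of all genes. These overlaps are of TMM-scaled CPM, and the WT groups of HSP70 overlapped in CPM but not in TPM. For 0 members did the latB libraries lie below all DMSO libraries of the genotype, which 11.1% of all genes did in sid2 and 27.9% in WT. The median log2 fold change of the 9 genes was 0.95 in sid2, against -0.0040 for all tested genes, and 0.36 in WT, against -0.0079. HSP90.1 was the 1 gene of the 9 that rose in both genotypes.

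Scaled for length, HSFB1 was the most abundant of the 9 transcripts in every group. Its level was 41.0 ± 7.23 TPM in sid2 latB and 18.19 ± 5.67 TPM in sid2 DMSO (SD, n = 3 each). It was 150.3 ± 63.5 TPM in WT latB and 16.9 ± 3.66 TPM in WT DMSO. HSFB1 thus stood above 86.4% of the loci with a TPM above 0 in sid2 latB and 74.4% in sid2 DMSO, and above 95.4% in WT latB and 72.7% in WT DMSO. No other member averaged above 10.9 TPM in any group. In sid2 latB the next were HSP70 at 10.9 ± 0.891 TPM, HSP90.1 at 6.41 ± 0.688 TPM and HSP17.4 at 6.18 ± 1.86 TPM. In WT latB they were HSP90.1 at 9.59 ± 1.94 TPM, HSP17.4 at 9.58 ± 1.26 TPM and HSP70 at 7.47 ± 1.29 TPM, which do not differ beyond their spread. The lowest member in each group was HSP17.6A, at 1.00 ± 0.224 TPM in sid2 latB, 0.115 ± 0.2001 TPM in sid2 DMSO, 0.772 ± 0.157 TPM in WT latB and 0.597 ± 0.0879 TPM in WT DMSO.

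**Figure D2:**
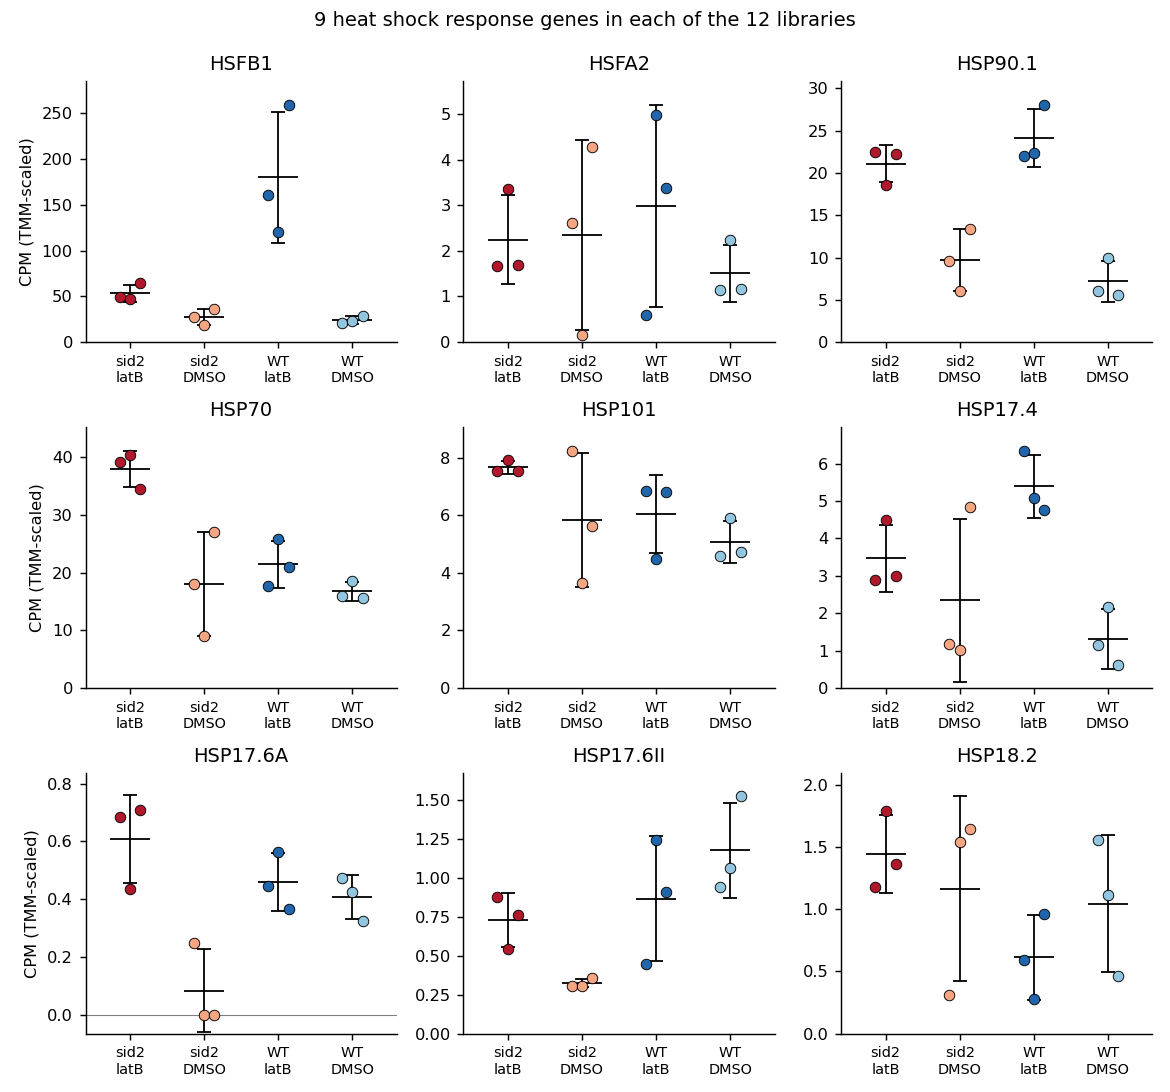
TMM-scaled CPM (y axis, linear, a scale for each gene) of the 9 genes in the 12 libraries; points are libraries, and bars are the mean and SD of 3 libraries. HSFB1 lies between 120.1 and 259 CPM in WT latB and at 64.2 CPM or lower in every other library, while HSP70 is highest in sid2 latB, at 34.4 to 40.4 CPM.

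HSFB1, the class B factor, rose in WT and was the 1 member whose response differed between the genotypes. In sid2 it had 48.8, 47.5 and 64.2 CPM with latB and 27.3, 19.1 and 36.4 CPM with DMSO. In WT it had 161, 120.1 and 259 CPM with latB and 20.4, 23.55 and 28.4 CPM with DMSO. Every latB library lay above every DMSO library of its genotype, and every WT latB library lay above every sid2 latB library. The increase in WT was 7.45-fold (log2 2.90 ± 0.29 SE, adjusted p = 4.10e-06). In sid2 the log2 fold change was 0.95 ± 0.27, which did not pass (adjusted p = 0.0620). It passed there with DESeq2 (0.0106), with scaling by library size alone (0.0314), with limma on TPM (0.0372), with offsets for effective length (0.0371), with no filter on low counts (0.0416), and without sid2 DMSO replicate 3 (log2 1.20, 0.0255), WT latB replicate 2 (0.0471) or WT latB replicate 3 (0.0313). The response differed between the genotypes by -1.94 ± 0.38 on the log2 scale, sid2 minus WT (adjusted p = 0.00294, and -1.69 with 0.00633 without sid2 DMSO replicate 3). This 1 member of 9 stands beside 10.7% of all tested genes with a lower and 13.4% with a higher response in sid2 (1948 and 2436 genes, against 2975 and 1820 with scaling by library size alone and 3583 and 1644 with limma on TPM). Its reads made up 38.0% to 47.2% of all reads of the 9 genes in sid2 latB, 38.9% to 46.8% in sid2 DMSO, 65.0% to 79.6% in WT latB and 36.3% to 48.6% in WT DMSO.

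HSFA2, the activator that sustains the heat response, was low and scattered in every group. It had 1.67, 3.36 and 1.69 CPM in sid2 latB and 2.60, 0.154 and 4.28 CPM in sid2 DMSO. It had 0.596, 4.97 and 3.38 CPM in WT latB and 1.149, 2.23 and 1.16 CPM in WT DMSO. The groups overlap in both genotypes, and libraries of 1 group differed by more than the groups did. The log2 fold change was -0.08 ± 0.78 in sid2 (adjusted p = 0.971) and 0.97 ± 0.78 in WT (adjusted p = 0.338), and that in sid2 was 0.65 without sid2 DMSO replicate 3. HSFA2 is listed with a transcript of 1038 coding bases and a shorter one of 873. The shorter one was assigned 52.9% of the HSFA2 reads in sid2 latB, 77.1% in sid2 DMSO, 85.2% in WT latB and 74.7% in WT DMSO, out of 127, 104, 174 and 84 reads in these groups.

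Of 4 class A1 factors, none passed in sid2 and 2 rose in WT: HSFA1D averaged 9.59 ± 1.69 CPM in WT latB and 5.83 ± 0.849 CPM in WT DMSO (adjusted p = 0.0186), and HSFA1B 16.6 ± 0.764 and 10.2 ± 3.67 CPM (0.0239). Of 15 further factors 10 were tested. Of these 1 rose in sid2 and 4 rose in WT, and none fell. Among all tested genes 3.53% rose and 1.21% fell in sid2, and 22.1% rose and 22.7% fell in WT. The same shares stand beside the counts of the lists that follow. HSFA3, an activator of the late heat and drought response, was the 1 that rose in sid2, to 4.81 ± 0.704 CPM with latB, against 0.914 ± 0.378 CPM with DMSO (5.20-fold, adjusted p = 0.0116). In WT it had 2.05 ± 0.346 CPM with latB and 0.695 ± 0.482 CPM with DMSO (adjusted p = 0.0137). HSFA8 rose 3.57-fold in WT (44.4 ± 6.85 against 12.4 ± 3.28 CPM, adjusted p = 1.02e-05), HSFA4A, a factor linked to oxidative stress, 2.23-fold (5.11e-04), and HSFB2A, a class B repressor, 2.17-fold (0.00119). HSFA8 and HSFB2A responded lower in sid2 than in WT, with interaction values of -2.37 ± 0.29 (1.66e-04) and -1.51 ± 0.32 (0.00418) on the log2 scale. HSFA1D and HSFA1B each lost the call in WT in 4 of 23 other settings (11 alternatives and 12 fits that each left out 1 library). HSFA1D lost it with a minimum log2 change of 1 and without WT latB replicate 3 or WT DMSO replicate 1 or 3 (adjusted p up to 0.0874), and HSFA1B with that minimum and without WT latB replicate 2 or 3 or WT DMSO replicate 1 (up to 0.0719). No class A1 factor passed in WT without WT latB replicate 3 or without WT DMSO replicate 1. HSFA3 in WT lost its call without WT DMSO replicate 2 (0.0575).

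HSP90.1, the heat-inducible cytosolic HSP90, rose in both genotypes. It had 22.5, 18.6 and 22.3 CPM in sid2 latB and 9.54, 6.09 and 13.4 CPM in sid2 DMSO. It had 22.0, 22.3 and 28.1 CPM in WT latB and 6.02, 9.89 and 5.59 CPM in WT DMSO. All 6 latB libraries lay above all 6 DMSO libraries, and the latB libraries of the genotypes overlapped. How many of all genes show this separation of 6 from 6 libraries was not counted. The increase was 2.18-fold in sid2 (log2 1.12 ± 0.26, adjusted p = 0.0264) and 3.37-fold in WT (log2 1.75 ± 0.26, 1.18e-04). The responses did not differ past the threshold (-0.63 ± 0.37, adjusted p = 0.231). The call in sid2 was lost without sid2 latB replicate 1 (0.0880) or 3 (0.0793), without sid2 DMSO replicate 1 (0.0792) or 2 (0.0807), and in a fit of the 6 sid2 libraries (0.0552). Without sid2 DMSO replicate 3 the log2 fold change was 1.42 (0.00630).

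HSP70 (AT3G12580), a stress-inducible cytosolic HSP70, rose in sid2. It had 39.2, 40.4 and 34.4 CPM in sid2 latB and 17.97, 8.95 and 27.1 CPM in sid2 DMSO. It had 17.7, 25.8 and 21.0 CPM in WT latB and 16.0, 18.6 and 15.6 CPM in WT DMSO. The 3 sid2 latB libraries lay above the other 9, a separation whose share among all genes was not counted. The WT groups overlapped in CPM. In TPM the WT groups did not overlap, with 6.07, 8.61 and 7.74 TPM in latB and 4.18, 5.09 and 4.32 TPM in DMSO. The increase was 2.11-fold in sid2 (log2 1.08 ± 0.28, adjusted p = 0.0404), and in WT the log2 fold change was 0.36 ± 0.28 (adjusted p = 0.315, but 0.0476 with scaling by library size alone). The difference of the responses was 0.72 ± 0.39 (adjusted p = 0.1998), and 1.13 (0.0233) without sid2 DMSO replicate 3. The call in sid2 was lost with robust hyperparameters (0.0507), in a fit of the 6 sid2 libraries (0.109), and without any 1 of the sid2 latB libraries (0.0784 to 0.109), sid2 DMSO replicate 1 (0.103) or 2 (log2 0.76, 0.0644), WT latB replicate 3 (0.0518), or WT DMSO replicate 1 (0.0516) or 2 (0.0560). HSP101, the disaggregase, had 7.55, 7.92 and 7.53 CPM in sid2 latB, 8.24, 3.63 and 5.64 CPM in sid2 DMSO, 6.85, 4.47 and 6.81 CPM in WT latB and 4.60, 5.90 and 4.72 CPM in WT DMSO. Its groups overlapped in both genotypes, with log2 fold changes of 0.39 ± 0.27 in sid2 (adjusted p = 0.465) and 0.25 ± 0.27 in WT (0.479). By whole gene spans, HSP101 overlaps 1 annotated gene on the opposite strand and HSP17.4 overlaps 2. No 31-base stretch of the HSP101 or HSP17.4 coding sequence was found in the coding sequence of another nuclear gene, on either strand. Bases outside annotated coding sequences were not searched, and whether reads were assigned by strand is not given in the sources used here.

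Among 11 other cytosolic HSP70, HSP110 and HSP90 genes, 10 were tested. Of these 2 rose and none fell in sid2, and 6 rose and 1 fell in WT. HSC70-2, a cytosolic HSP70, had 98.2 ± 16.5 CPM in sid2 latB and 24.5 ± 14.2 CPM in sid2 DMSO (4.01-fold, adjusted p = 0.00782), and 219 ± 75.6 CPM in WT latB and 25.6 ± 9.69 CPM in WT DMSO (8.56-fold, 2.09e-05). HSC70-3 rose 2.35-fold in sid2 (adjusted p = 0.0439) and 3.12-fold in WT (9.79e-04). HSP90.3, a constitutive HSP90, rose 2.02-fold in WT (0.00578); it is nearly identical to HSP90.2 and HSP90.4, so its share of their reads is uncertain. HSC70-1, the main constitutive HSP70, fell in WT, with 1438 ± 164 CPM in latB and 2117 ± 138 CPM in DMSO (0.0107); in sid2 it had 1823 ± 231 and 1461 ± 272 CPM (0.275), and the interaction was 0.88 ± 0.22 (0.0122). The lower level of HSC70-1 in WT latB did not pass with scaling by library size alone (0.277) or limma on TPM (0.336), nor did its interaction with limma (0.0519). HSC70-3 lost its call in sid2 in 9 of 23 settings: with robust hyperparameters, in a fit of the 6 sid2 libraries, and without any 1 of the sid2 latB libraries, sid2 DMSO replicate 1 or 2, WT latB replicate 2 or WT DMSO replicate 3 (adjusted p up to 0.114). The count of 2 in sid2 was 1 without any of these 7 libraries and 5 without sid2 DMSO replicate 3. Of 15 cochaperones and regulators 1 rose in sid2 and 6 rose in WT, and none fell. J2, a J-domain partner of HSP70, rose 1.71-fold in sid2 (75.0 ± 7.37 against 43.9 ± 4.18 CPM, adjusted p = 0.00662) and 2.32-fold in WT (195.7 ± 28.1 against 84.5 ± 2.02 CPM, 9.99e-06). SGT1B and SGT1A, partners of HSP90 in immune receptor folding, rose 1.53-fold (3.89e-04) and 1.68-fold (0.00103) in WT. The interaction was -0.49 ± 0.15 for SGT1B (0.0308) and -0.84 ± 0.29 for RAR1, which binds SGT1 and HSP90 (0.0472). The SGT1B interaction lost its call in 8 of 22 settings, among them without sid2 latB replicate 1 or 2, WT latB replicate 3 or WT DMSO replicate 1 or 2 (adjusted p up to 0.0762). That of RAR1 lost it in 13 of 22, among them without any 1 library other than sid2 latB replicate 3, sid2 DMSO replicate 3 and WT latB replicate 1 (up to 0.114).

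Of the 4 small heat shock protein genes, HSP17.4 rose in WT and none passed in sid2. HSP17.4, a class I protein, had 2.89, 4.50 and 3.001 CPM in sid2 latB and 1.18, 1.00 and 4.85 CPM in sid2 DMSO. It had 6.35, 5.09 and 4.75 CPM in WT latB and 1.149, 2.18 and 0.601 CPM in WT DMSO. The WT groups did not overlap, whereas sid2 DMSO replicate 3 lay above all sid2 latB libraries. The increase in WT was 4.12-fold (log2 2.04 ± 0.55, adjusted p = 0.00804), and log2 2.65 (0.00549) without WT DMSO replicate 2. In sid2 the log2 fold change was 0.56 ± 0.54 (adjusted p = 0.608), and 1.65 (0.0525) without sid2 DMSO replicate 3. The interaction was -1.48 ± 0.77 (adjusted p = 0.179), -0.39 (0.691) without that library and -2.09 (0.0855) without WT DMSO replicate 2.

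The class II pair HSP17.6A and HSP17.6II rested on 0 to 33 reads per library. HSP17.6A had 14, 8 and 13 reads in sid2 latB, 4, 0 and 0 reads in sid2 DMSO, 9, 10 and 8 reads in WT latB and 7, 8 and 7 reads in WT DMSO. HSP17.6II had 18, 10 and 14 reads in sid2 latB, 5, 4 and 5 reads in sid2 DMSO, 9, 22 and 20 reads in WT latB and 14, 20 and 33 reads in WT DMSO. Both were lowest in sid2 DMSO, where every library lay below every library of the other groups. The share of all genes with this separation from all other groups was not counted. The log2 fold changes in sid2 were 2.67 ± 0.91 for HSP17.6A (adjusted p = 0.111) and 1.152 ± 0.57 for HSP17.6II (0.276), and in WT 0.17 ± 0.74 (0.870) and -0.45 ± 0.50 (0.494). HSP17.6A passed in sid2 (0.0425) and in the interaction (0.0233) without sid2 DMSO replicate 1, which leaves its sid2 DMSO group at 0 reads and gives no fold. HSP18.2, of class I, had 1.18, 1.79 and 1.36 CPM in sid2 latB, 0.310, 1.54 and 1.64 CPM in sid2 DMSO, 0.596, 0.283 and 0.960 CPM in WT latB and 1.56, 1.12 and 0.462 CPM in WT DMSO. Its groups overlapped in both genotypes, with log2 fold changes of 0.32 ± 0.64 in sid2 (adjusted p = 0.831) and -0.73 ± 0.66 in WT (0.398).

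**Figure D3:**
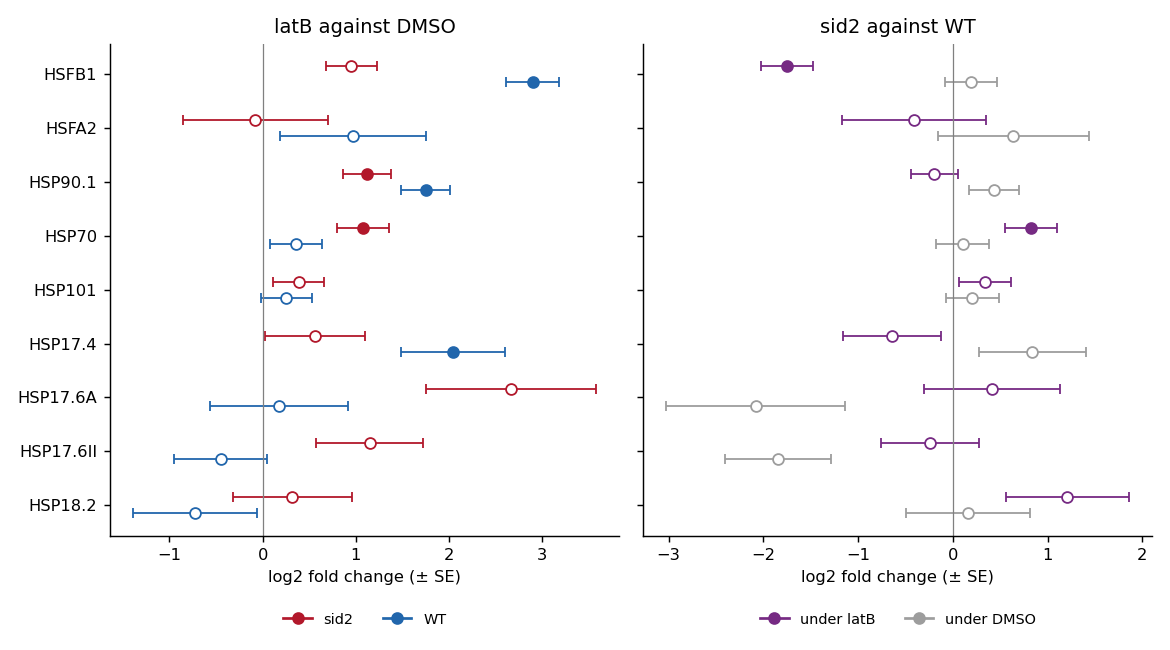
Log2 fold changes with SE (x axis) for each gene, latB against DMSO within sid2 and within WT on the left and sid2 against WT under latB and under DMSO on the right; filled points have an adjusted p under 0.05 and open points do not. HSFB1 has the highest WT value (2.90) and the lowest value of sid2 against WT under latB (-1.75).

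Of 7 other small heat shock genes of cytosol, nucleus and peroxisome, 6 were tested; none passed in sid2, while 2 rose and 2 fell in WT. The class I genes HSP17.8-CI and HSP17.6B-CI rose in WT, with 1.86 ± 0.570 and 1.84 ± 0.235 CPM in WT latB, against 0.407 ± 0.427 and 0.718 ± 0.0596 CPM in WT DMSO (adjusted p = 0.0301 and 0.0295). HSP15.4 fell in WT, with 0.308 ± 0.235 CPM in latB and 2.29 ± 0.951 CPM in DMSO (0.00943), and HSP17.4-CIII, a class III protein, fell likewise (0.0375). HSP15.4 and HSP17.6B-CI responded differently by genotype, with interaction values of 4.33 ± 1.08 (0.0107) and -2.14 ± 0.65 (0.0277). Of 5 organelle small heat shock genes 1 was tested: mitochondrial HSP23.5 rose in sid2, with 1.97 ± 0.383 CPM in latB and 0.279 ± 0.0682 CPM in DMSO (0.0381). In WT, HSP17.8-CI lost its call without WT latB replicate 2 or 3 or WT DMSO replicate 1 or 3 (adjusted p up to 0.0841), and HSP17.6B-CI with effective-length offsets and without any 1 WT library other than latB replicate 2 (up to 0.0782). HSP17.4-CIII lost it without sid2 latB replicate 1, WT latB replicate 2 or 3 or WT DMSO replicate 1 or 2, with scaling by library size alone, and when the 6 WT libraries were fitted on their own (up to 0.124). The count of 4 in WT was 1 without WT latB replicate 3 or WT DMSO replicate 1, and 2 without WT latB replicate 2 or WT DMSO replicate 2 or 3. The HSP17.6B-CI interaction lost its call in 8 of 22 settings: with effective-length offsets and without sid2 latB replicate 2 or 3, sid2 DMSO replicate 1, WT latB replicate 1 or 3 or WT DMSO replicate 1 or 2 (up to 0.0870). HSP23.5 lost its call in 9 of 23 settings: without any 1 of the sid2 latB or WT latB libraries, sid2 DMSO replicate 1 or 2 or WT DMSO replicate 2 (up to 0.114). The HSP15.4 calls held in every setting.

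Of 9 organelle HSP90, HSP100 and HSP70 genes, 2 rose and none fell in sid2, and 3 rose and 3 fell in WT. The mitochondrial genes MTHSC70-1 and HSP90.6 rose 1.96-fold (adjusted p = 0.0126) and 1.62-fold (0.0391) in sid2. MTHSC70-1 lost its call with a minimum log2 change of 1, in a fit of the 6 sid2 libraries and without sid2 DMSO replicate 1 or 2 (adjusted p up to 0.0539). HSP90.6 lost it in 10 of 23 settings: with that minimum, in that fit, and without any 1 of the sid2 latB libraries, sid2 DMSO replicate 1 or 2, WT latB replicate 1 or 2 or WT DMSO replicate 2 (up to 0.135). The count of 2 in sid2 was 0 without sid2 DMSO replicate 1 or 2, 1 without any of the other 6 libraries just named and 4 without sid2 DMSO replicate 3. It was 6 with scaling by library size alone, 5 with DESeq2 or limma on TPM and 0 in a fit of the 6 sid2 libraries or with a minimum log2 change of 1. HSP90.7, the HSP90 of the endoplasmic reticulum, had 378 ± 29.98 CPM in sid2 latB, 293 ± 12.3 CPM in sid2 DMSO, 1193 ± 30.7 CPM in WT latB and 353 ± 43.5 CPM in WT DMSO. It rose 3.38-fold in WT (5.02e-07), with an interaction of -1.39 ± 0.18 (2.07e-04). The plastid chaperone genes HSP90.5 and CPHSC70-1 fell in WT, to 94.5 ± 13.8 and 199 ± 21.0 CPM in WT latB, against 193.5 ± 26.9 and 381 ± 32.0 CPM in WT DMSO (5.86e-04 and 1.55e-04). In sid2 they had 206 ± 43.4 and 364 ± 55.0 CPM with latB and 141 ± 31.3 and 311 ± 35.5 CPM with DMSO, and their interaction values were 1.58 ± 0.27 (0.00126) and 1.16 ± 0.21 (0.00155). Mesophyll markers fell in the same WT libraries, and their part in the plastid values was not tested.

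Of 7 other heat-responsive genes 6 were tested; none passed in sid2 and 3 rose in WT. MBF1C, a coactivator needed for heat tolerance, had 16.6 ± 2.92 CPM in sid2 latB, 23.48 ± 2.99 CPM in sid2 DMSO, 20.4 ± 2.50 CPM in WT latB and 10.9 ± 1.38 CPM in WT DMSO. It rose 1.87-fold in WT (adjusted p = 6.68e-04), with an interaction of -1.41 ± 0.24 (0.00122). DREB2A, a factor of drought and heat stress upstream of HSFA3, rose in WT on 120 reads in latB and 15 in DMSO (0.00756), and DREB2C on 41 reads and 1 read (0.00795), too few for a fold. DREB2A lost its call without WT latB replicate 3 (0.0515). Over all 8 lists 61 of 73 genes were tested: 7 rose and none fell in sid2, and 26 rose and 6 fell in WT. Of all tested genes 3.53% rose and 1.21% fell in sid2, and 22.1% rose and 22.7% fell in WT. The median log2 fold change of the 61 genes was 0.24 in sid2 and 0.49 in WT, against -0.0040 and -0.0079 for all tested genes. The count in sid2 was 15 without sid2 DMSO replicate 3 and 3 without sid2 DMSO replicate 2.

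**Figure D4:**
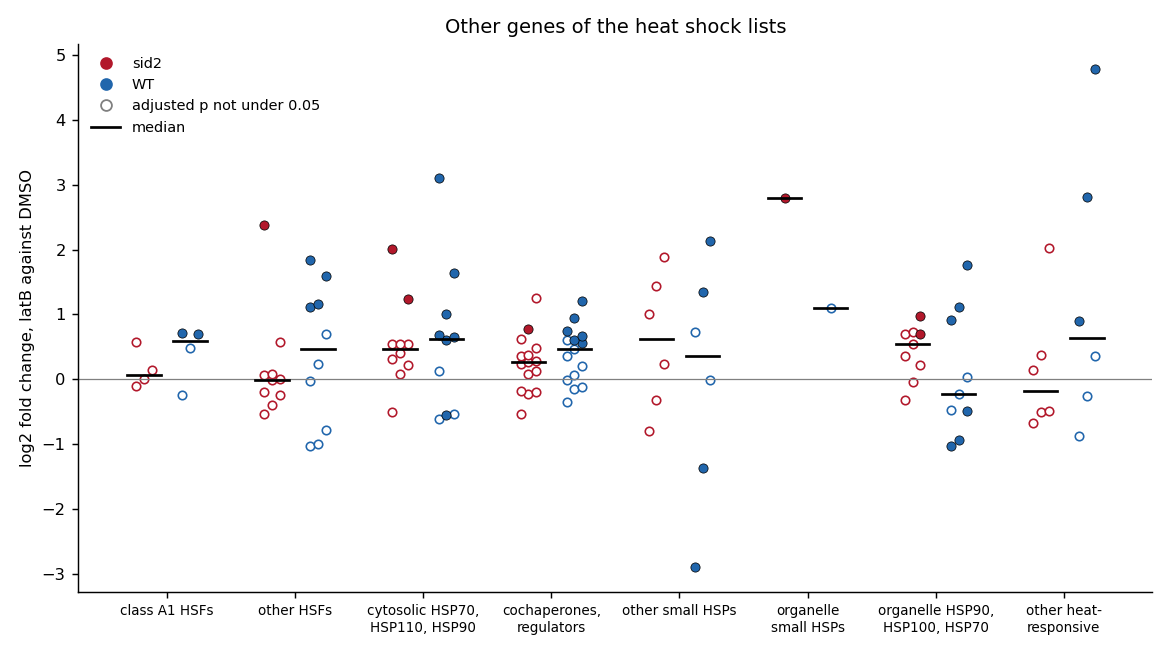
Log2 fold change of latB against DMSO (y axis) for the 61 tested genes of the 8 lists (x axis), sid2 in red and WT in blue; filled points have an adjusted p under 0.05 and bars are list medians. The median of the cytosolic HSP70, HSP110 and HSP90 genes is 0.47 in sid2 and 0.63 in WT, and that of the class A1 factors is 0.07 in sid2 and 0.59 in WT.

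Between the genotypes under DMSO, 0 of the 9 genes passed, beside 4.46% of all tested genes that were higher and 6.56% that were lower in sid2 (810 and 1191 genes, 552 and 1536 with scaling by library size alone, 323 and 712 without WT DMSO replicate 1, 354 and 740 without sid2 DMSO replicate 1, and 476 higher without WT DMSO replicate 2). At an unadjusted p under 0.05 there were 2, HSP17.6A (log2 -2.08 ± 0.94, adjusted p = 0.180) and HSP17.6II (-1.84 ± 0.56, adjusted p = 0.0502). These 2 were also the members with every sid2 DMSO library below every WT DMSO library, as were 14.0% of all genes; 0 members, and 13.1% of all genes, lay above. HSP17.6II passed with DESeq2 (0.0300), limma on TPM (0.0209), scaling by library size alone (0.0417), effective-length offsets (0.0457) and without WT latB replicate 1 (0.0480). HSP17.6A passed without sid2 DMSO replicate 1 (0.0429). HSFB1 and HSP70 had 27.6 ± 8.68 and 17.99 ± 9.05 CPM in sid2 DMSO and 24.1 ± 4.04 and 16.8 ± 1.62 CPM in WT DMSO, with log2 differences of 0.19 ± 0.27 and 0.11 ± 0.28. Of the 61 list genes 4 were higher and 5 lower in sid2. MBF1C was 2.15-fold higher (adjusted p = 0.00120), HSFB2A 2.28-fold (0.00501), HSP17.6B-CI 3.37-fold (0.0287) and HSFA8 1.92-fold (0.00995). J2 was 1.92-fold lower (7.01e-04), SGT1B 1.38-fold (0.0139), MTHSC70-1 1.75-fold (0.0166), HSC70-1 1.45-fold (0.0446) and HSFA1D 1.74-fold (0.0450). HSFA1D lost its call in 15 of 23 settings, among them without any 1 library other than WT latB replicates 1 and 3 (adjusted p up to 0.1455). HSC70-1 lost it in 11, among them without sid2 latB replicate 1 or 3, sid2 DMSO replicate 1 or 2, WT latB replicate 2 or any 1 of the WT DMSO libraries (up to 0.174). HSP17.6B-CI lost it in 6, among them without sid2 DMSO replicate 1 or any 1 of the WT DMSO libraries (up to 0.144), and MTHSC70-1 in 4, among them without sid2 DMSO replicate 1 or 2 or WT DMSO replicate 2 (up to 0.0764). SGT1B lost it in 3, among them without sid2 DMSO replicate 1 (0.05225).

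Between the genotypes under latB, 1 of the 9 was higher in sid2, HSP70, and 1 was lower, HSFB1, beside 22.1% of all tested genes that were higher and 21.2% that were lower (4020 and 3850 genes, 2731 and 6071 with scaling by library size alone, and 2654 and 6093 with limma on TPM). HSFB1 averaged 53.5 ± 9.28 CPM in sid2 latB and 180.1 ± 71.4 CPM in WT latB, a log2 difference of -1.75 ± 0.27 (adjusted p = 1.60e-04). HSP70 averaged 38.0 ± 3.16 CPM in sid2 latB and 21.5 ± 4.07 CPM in WT latB, 1.77-fold higher in sid2 (log2 0.82 ± 0.27, adjusted p = 0.0251). The HSP70 call was lost with scaling by library size alone (0.111), limma on TPM (0.125), and without sid2 latB replicate 1 (0.0634) or 2 (0.0672) or WT latB replicate 1 (0.0935) or 3 (0.0700). All sid2 latB libraries lay above all WT latB libraries for HSP70, HSP101 and HSP18.2 (28.8% of all genes) and below them for HSFB1 and HSP17.4 (28.9%). The differences of HSP101 (0.34 ± 0.27), HSP18.2 (1.21 ± 0.65) and HSP17.4 (-0.64 ± 0.51) did not pass, with adjusted p of 0.331, 0.151 and 0.339. HSP90.1 had 21.1 ± 2.21 CPM in sid2 latB and 24.1 ± 3.39 CPM in WT latB (adjusted p = 0.561). Of the 61 list genes 8 were higher and 13 lower in sid2. HSP90.7 (3.16-fold, adjusted p = 7.29e-07), J2 (2.61-fold, 4.18e-06), HSFA8 (2.70-fold, 7.26e-05), HSC70-2 (2.23-fold, 0.0153), SGT1B (1.94-fold, 1.35e-05), HSFA1D (1.92-fold, 0.00410), HSP90.4 (1.66-fold, 0.00418), HSP70-14 (an HSP110, 1.60-fold, 0.00322), SGT1A (1.60-fold, 0.00223), HSFA4A (1.55-fold, 0.0240) and HSFA4C (1.41-fold, 0.0272) were lower. HSP90.5 (2.18-fold, 3.34e-04), CPHSC70-1 (1.83-fold, 2.97e-04), HSP17.4-CIII (2.74-fold, 0.0287) and HSA32 (2.09-fold, 0.0458) were higher. So was HSP15.4 (10.4-fold on 186 reads in sid2 latB and 18 in WT latB, 0.00369). HSA32 lost its call in 12 of 23 settings, among them without any 1 library other than sid2 DMSO replicates 2 and 3 and WT latB replicate 1 (adjusted p up to 0.156). HSFA4A lost it without sid2 latB replicate 2 or 3 or WT latB replicate 3 (up to 0.0756), HSFA4C without sid2 latB replicate 2 or WT latB replicate 2 or 3 and with upper-quartile scaling (up to 0.123), and HSC70-2 without sid2 latB replicate 1 or WT latB replicate 3 (up to 0.0761). HSP17.4-CIII lost it with scaling by library size alone and without sid2 latB replicate 1 or 2 or WT latB replicate 2 or 3 (up to 0.1095).

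The 9 genes lay at unequal distances from their average profile. Set against the average profile of the members over the 12 libraries, in log2 CPM minus the WT DMSO mean, HSP70 had the smallest root mean square difference among them (0.34), followed by HSP101 (0.43) and HSP90.1 (0.73). The others lay between 0.89 for HSFA2 and 1.20 for HSP17.6II, with HSFB1 at 1.11. This distance takes in the size of a response and the scatter of low counts, so it does not measure shape alone. Each member is also part of the average it was set against. Genes outside the members had to average at least 0 in log2 CPM, which members did not, and were picked as the nearest of many. The distances of the members and of outside genes are therefore not a like comparison. Of the tested genes outside the members, the 8 nearest to the average were AT4G04960 (0.13), HSP90.3 (0.20), G6PD6, a cytosolic enzyme of the pentose phosphate pathway (0.22), AT3G28940 (0.23), HSP90.2 (0.25), the cytochrome P450 gene CYP71B36 (0.25), the RNA-binding protein gene PUM24 (0.25) and FAH1, an enzyme of sinapate synthesis (0.25). HSP90.3 averaged 174 ± 16.3 CPM in sid2 latB, 119 ± 48.5 CPM in sid2 DMSO, 223 ± 45.2 CPM in WT latB and 110.7 ± 26.2 CPM in WT DMSO.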

How the data were processed

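Per the submitters' processing notes, the authors used Trimmomatic on the reads and Salmon 1.3.0 with TAIR10 for quantification. Per the file headers, the 12 deposited tables list 32875 transcripts, with lengths (full and effective), TPM and an estimated count; 99.99% of the lengths are multiples of 3, so they are coding lengths. Estimated counts and deposited TPM were summed to 27313 loci, and counts were rounded. Genes passing filterByExpr (18149) were scaled by TMM and tested in 1 model of the 12 libraries with edgeR 4.0.16 in R 4.3.3. The test was the quasi-likelihood test, with Benjamini-Hochberg adjustment over all tested genes and a threshold of 0.05. The code was first run on simulated counts with 1 spread for all genes, which checks the code and not the results given here. A log2 fold change is first-named minus second-named group. Library totals limit precision, most for genes under 30 reads. Replicates were numbered in accession order. The interaction is the latB response in sid2 minus that in WT.

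The members and lists were chosen with earlier results of these data known. Named genes were the 9 members and up to 3 genes of each list with the smallest adjusted p in each comparison. The 8 genes nearest the members' average profile (average log2 CPM of at least 0) were named too. For named genes only some values in other comparisons are given, and not all that passed. The alternatives were RLE, upper-quartile and library-size scaling, no filter, robust hyperparameters, effective-length offsets, a minimum log2 change of 1 in either direction, limma 3.58.1 on log2(TPM + 1), DESeq2 1.42.0, leaving out organelle genes, a fit of the libraries compared alone, and leaving out each library. All 103 list loci were found in RefSeq TAIR10.1, and the deposited coding lengths matched it for the members except HSP90.1 (2118 deposited bases against 2103).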

Additional observations from a re-analysis of the deposited data

Results flagged for a closer look

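The latB response differed between the genotypes for 1 member and for 15 of the 61 other list genes, 7 higher and 8 lower in sid2. Of all tested genes 13.4% were higher and 10.7% lower, so the share over the 61 list genes together lies near that of all genes. The lists were uneven: of 9 organelle HSP90, HSP100 and HSP70 genes 5 were higher and 2 lower, and of 4 class A1 factors none passed. Of the 15, 11 fall under the rule for named genes in this comparison. The values are log2 differences of the responses, sid2 minus WT, from the edgeR quasi-likelihood test. The response was lower in sid2 for HSFB1 (-1.94), HSFA8 (-2.37), HSFB2A (-1.51), HSP17.6B-CI (-2.14), HSP90.7 (-1.39), SGT1B (-0.49), RAR1 (-0.84) and MBF1C (-1.41). It was higher in sid2 for HSP15.4 (4.33), HSC70-1 (0.88), HSP90.5 (1.58) and CPHSC70-1 (1.16). HSFA8, HSFB2A, HSP17.6B-CI and MBF1C were higher in sid2 than in WT under DMSO, and their log2 fold changes within sid2 were -0.54, -0.40, -0.79 and -0.50, none of which passed. The calls of RAR1, SGT1B and HSP17.6B-CI were lost in 13, 8 and 8 of 22 other settings, with adjusted p up to 0.114, 0.0762 and 0.0870, and that of HSC70-1 in 2 (up to 0.0519). HSP15.4 rested on 186, 50, 18 and 132 reads in sid2 latB, sid2 DMSO, WT latB and WT DMSO.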

How the results depend on the processing

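No paired analysis was possible because the labels give no replicate numbers, plants or batches shared between groups. Over 11 alternatives and 12 fits that each left out 1 library, 952 of 1016 member values kept their direction and their side of the threshold, 22 lost the call, 18 gained it and 24 turned in sign; 0 of the called values turned. Library-size scaling moved the median log2 fold change of all genes by 0.34 in WT and 0.15 in sid2, and few reads limit HSFA2 and 3 of the small heat shock genes. The causes of the shifts below were not tested.

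The count of members past the threshold was 3 in WT under every alternative except library-size scaling, which gave 4. In sid2 it was 2, against 3 with library-size scaling, no filter, DESeq2, limma or effective-length offsets, 1 with robust hyperparameters, 0 in a fit of the sid2 libraries alone and 0 to 3 with 1 library left out. For the interaction it was 1, and 1 to 2 with 1 library left out. For sid2 against WT it was 0 under DMSO, 1 with library-size scaling, DESeq2, limma or effective-length offsets and 0 to 1 with 1 library left out. Under latB it was 2, 1 with library-size scaling, limma or a minimum log2 change of 1, and 1 to 2 with 1 library left out. The count of list genes was 32 in WT, 7 in sid2, 9 for the genotypes under DMSO and 21 under latB. A minimum log2 change of 1, which by construction drops smaller changes, gave 17, 4, 3 and 10. In sid2 it was 14 with library-size scaling, 13 with DESeq2, 12 with limma, 4 in a fit of the sid2 libraries and 3 to 15 with 1 library left out. Under DMSO it was 5 in a fit of those libraries alone and 4 to 11 with 1 library left out.

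Signs turned in log2 values that had not passed. HSFA2 in sid2 (-0.08) was 0.077 with library-size scaling, 0.20 with limma and -0.62 to 0.65 with 1 library left out, and HSP18.2 in sid2 (0.32) ran from -0.14 to 0.66. The interaction of HSP101 (0.13) was -0.063 with library-size scaling, -0.022 with limma, and -0.11 to 0.47 with 1 library left out. For sid2 against WT under DMSO, HSP70 (0.11) and HSP18.2 (0.16) were -0.032 and -0.031 with limma. With 1 library left out the DMSO values ran from -0.31 to 0.42 for HSP70, -0.13 to 0.45 for HSP101, -0.25 to 1.45 for HSP17.4, -0.20 to 0.63 for HSP18.2, -0.094 to 1.18 for HSFA2 and -0.056 to 0.40 for HSFB1. Under latB, HSP17.6II (-0.24) was 0.0018 with effective-length offsets and -0.56 to 0.090 with 1 library left out, and HSFA2 (-0.41) ran from -0.90 to 0.16.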
